A study of Mus musculus with 4 samples.

Results

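Genes that govern the passage of a cell from G1 into S phase were followed in cultured mouse neural stem cells: the D-type cyclins Ccnd1, Ccnd2 and Ccnd3, the E-type cyclins Ccne1 and Ccne2, the kinases Cdk4, Cdk6 and Cdk2, the retinoblastoma gene Rb1 and the transcription factor gene E2f1. The 10 genes were chosen by symbol from 55487 genes in the table, and all 10 were found. Each of 4 groups was 1 library. The control, titled wild type, was a culture with both Tut1 alleles floxed (Tut1f/f) that received empty lipid nanoparticles (LNP), and the library labelled Tut1 KO came from Tut1f/f cells that received LNP with Cre mRNA (Cre-LNP). The Trp53 KO library came from p53f/f cells and the double KO library from Tut1f/f;p53f/f cells, both given Cre-LNP, and the series text gives a treatment of 3 days. All were primary cells from the embryonic neocortex grown with bFGF and EGF, in which Cre was delivered as mRNA and was not driven by a cell type promoter. How many embryos each culture came from is not given in the sources used here. Because no group had a second library, the spread between cultures is unknown, no test was run, and no error or p-value is given.

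In G1, D-type cyclins bind Cdk4 or Cdk6, and E-type cyclins bind Cdk2. Both kinds of kinase phosphorylate the Rb1 protein, which releases E2F factors that switch on genes for DNA replication. Mitogens such as FGF and EGF induce Ccnd1, and the inhibitors of the Cip/Kip and Ink4 families hold the kinases back. Neural progenitors with a short G1 keep dividing, and a longer G1 accompanies the formation of neurons.

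The promoters of Cdk4 and Cdk2 are shown because Cdk4 was the most abundant of the 3 kinases in every library and Cdk2 was the gene with the widest range of the 10. They were taken from a set of RefSeq promoters (GRCm38.p6), and the set used here held a promoter for 6 of the 10 genes. Capitals mark CACGTG (the E-box core that Myc factors bind) and TTCCCGC (a core of E2F sites), searched on both strands together with TTGGCGC, another E2F core. The Cdk4 stretch is chr10:127063285-127063534 on the plus strand, the 250 bases before the RefSeq start. The Cdk2 stretch is chr10:128705052-128705171 on the minus strand, the 120 bases before the start.
Cdk4: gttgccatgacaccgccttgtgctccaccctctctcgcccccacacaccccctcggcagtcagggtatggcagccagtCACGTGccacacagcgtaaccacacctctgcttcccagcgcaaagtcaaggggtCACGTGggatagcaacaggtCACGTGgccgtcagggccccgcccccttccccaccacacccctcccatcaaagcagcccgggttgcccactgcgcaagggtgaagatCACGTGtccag
Cdk2: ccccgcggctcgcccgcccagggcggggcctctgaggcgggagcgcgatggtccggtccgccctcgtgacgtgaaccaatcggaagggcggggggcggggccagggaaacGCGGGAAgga
The Cdk4 stretch held 4 matches to CACGTG and none to the E2F cores. Of 32851 RefSeq promoters cut to the same 250 bases, 6.02% held at least 1 CACGTG and 0.0213% held 4 or more. Cdk2 held 2 matches to TTCCCGC within 250 bases, beginning 140 and 10 bases before the start, and none to TTGGCGC or CACGTG. The first of these lies in an annotated exon of Pmel on the opposite strand and is not printed. At least 1 TTCCCGC was held by 3.82% of the promoters and at least 2 by 0.18%, while 1.97% held TTGGCGC. None of these motifs overlapped each other, and a match is a description of letters, not evidence of a bound factor.

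The labels were checked first. Tut1 was at 12.2 TPM (transcripts per 1000000 transcripts) in the control, 29.8 in the library labelled Tut1 KO, 12.5 in Trp53 KO and 13.7 in double KO. Tut1 was thus higher rather than lower in the library labelled Tut1 KO, and in the library labelled double KO it was no lower than in Trp53 KO or the control. Every direction drawn below from either library as a Tut1 deletion rests on its label, and double KO below names the library so labelled. The study deletes exon 2, which a TPM over the whole gene does not isolate, and coverage of that exon was not analysed here. Trp53 was at 120 TPM in the control, 100.4 in the library labelled Tut1 KO, 39.7 in Trp53 KO and 41.9 in double KO. Xist was at 188 TPM in the library labelled Tut1 KO, 204 TPM in Trp53 KO and 0.01 TPM in each of the others, while Y-linked Ddx3y was at 24.4 TPM in the control, 25.7 TPM in double KO and listed at 0 in the remaining libraries, so sex-linked transcripts split the libraries along other lines than the genotypes. Between 8392 and 8747 genes per library had at least 10 TPM, and depth is unknown because TPM does not keep it. All 10 neural stem cell markers had at least 10 TPM, with summed levels of 10814 to 12729 TPM that came mostly from Fabp7. Of 10 neuronal markers 3 reached 10 TPM, with sums of 167 to 241 TPM that came mostly from Map2. Of 8 oligodendrocyte lineage markers 4 did, with sums of 1565 to 1765 TPM mostly from Olig1 and Olig2, and of 5 astrocyte markers 2 did. No microglial, endothelial or fibroblast marker reached 10 TPM, and Aif1, Cx3cr1, Itgam, Cdh5, Dcn and Lum were listed at 0 in all 4 libraries.

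The kinases of G1 were expressed at very different levels. Since TPM is per transcript length, levels can be compared between genes. Cdk4 (ENSMUSG00000006728, chr10:127063534-127067920), a partner of the D-type cyclins, was at 635 TPM in the control, 720 in the library labelled Tut1 KO, 622 in Trp53 KO and 606 in double KO. Its 4 values lay within a factor of 1.19. Cdk6 (ENSMUSG00000040274, chr5:3341485-3531008), the other kinase of the D-type cyclins, was at 1.27, 1.16, 0.993 and 1.74 TPM in the same order. Cdk6 was therefore the lowest of the 10 genes in every library, and Cdk4 exceeded it at least 348-fold in each. At about 1 TPM and unknown depth, the differences among the Cdk6 values, and among the ratios to Cdk4, cannot be read, and Cdk6 did not enter the contrasts.

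Cdk2 (ENSMUSG00000025358, chr10:128697939-128705031, minus strand), the kinase of the E-type cyclins, had the widest gap between libraries of the 10 genes. It was at 35.9 TPM in the control, 36.2 in the library labelled Tut1 KO, 56.5 in Trp53 KO and 16.1 in double KO. The double KO library was the lowest and the Trp53 KO library the highest, 3.52-fold apart, and the other two were almost equal. In such bulk samples, fewer cells of a type and less RNA per cell cannot be told apart. Cdk4 exceeded Cdk2 by 17.7-fold in the control, 19.9-fold in the library labelled Tut1 KO, 11.01-fold in Trp53 KO and 37.7-fold in double KO. The gene has 7 transcripts in GENCODE M21, of which 2 are protein-coding and 4 retain an intron, and their lengths run from 549 to 3264 bases. TPM depends on how reads are shared among such transcripts, and transcript-level values were not analysed here. The annotated exons of Cdk2 share 34 bases with Pmel on the opposite strand, and Pmel was at 0.993 to 1.18 TPM.

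The D-type cyclins, which carry the mitogen signal to Cdk4, were the most abundant cyclins of G1. Ccnd1 (ENSMUSG00000070348, chr7:144929931-144939925) was at 632 TPM in the control, 520 in the library labelled Tut1 KO, 523 in Trp53 KO and 508 in double KO. The control was highest, and the 3 libraries that received Cre mRNA lay close together. Ccnd2 (ENSMUSG00000000184, chr6:127125162-127152193), whose mRNA is carried into the basal processes of radial glia, was at 228, 195, 184 and 216 TPM in the same order. Ccnd3 (ENSMUSG00000034165, chr17:47505051-47599691) was at 96.9, 104, 111 and 94.8 TPM, with its highest value in the Trp53 KO library. The 3 genes together made 957 TPM in the control, 819 in the library labelled Tut1 KO, 818 in Trp53 KO and 819 in double KO.

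Within that sum, Ccnd1 took 66.0% in the control, 63.5% in the library labelled Tut1 KO, 63.9% in Trp53 KO and 62.0% in double KO. Ccnd2 took 23.9%, 23.8%, 22.5% and 26.4%, and Ccnd3 took 10.1%, 12.7%, 13.5% and 11.6%. The order Ccnd1, Ccnd2, Ccnd3 held in all 4 libraries.

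The E-type cyclins, which activate Cdk2 at the entry into S phase, were much lower. Ccne1 (ENSMUSG00000002068, chr7:38097984-38107534) was at 31.2 TPM in the control, 24.1 in the library labelled Tut1 KO, 28.1 in Trp53 KO and 25.6 in double KO. Ccne2 (ENSMUSG00000028212, chr4:11191351-11204779) was at 26.1, 13.5, 19.5 and 23.4 TPM in the same order. Both were highest in the control and lowest in the library labelled Tut1 KO, where the gap to the control was larger for Ccne2. Their sum was 57.2 TPM in the control, 37.6 in the library labelled Tut1 KO, 47.6 in Trp53 KO and 49.0 in double KO. The D-type sum exceeded it 16.7-fold in the control, 21.8-fold in the library labelled Tut1 KO, 17.2-fold in Trp53 KO and 16.7-fold in double KO.

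Rb1 (ENSMUSG00000022105, chr14:73183673-73325822), which restrains E2F factors, was at 20.9 TPM in the control, 13.8 in the library labelled Tut1 KO, 17.1 in Trp53 KO and 15.6 in double KO. E2f1 (ENSMUSG00000027490, chr2:154559407-154569892), an activating E2F, was at 18.1, 14.7, 21.6 and 17.3 TPM. Rb1 was thus highest in the control and E2f1 in the Trp53 KO library, and both were lowest in the library labelled Tut1 KO. The ratio of Rb1 to E2f1 was 1.16 in the control, 0.94 in the library labelled Tut1 KO, 0.79 in Trp53 KO and 0.90 in double KO.

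**Figure D1:**
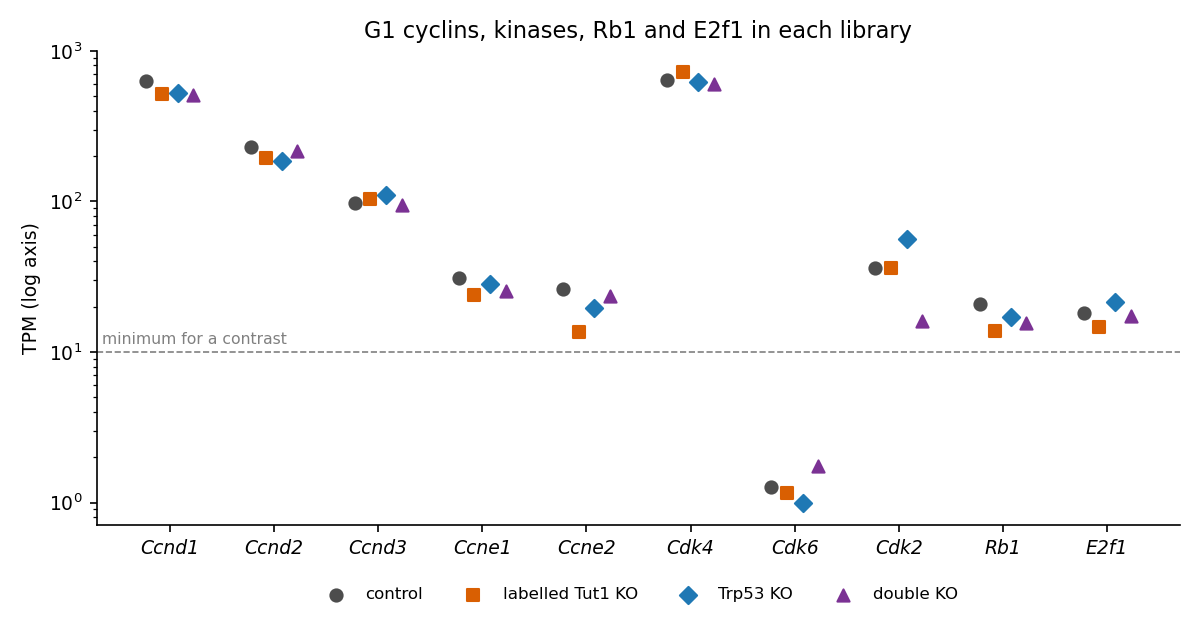
TPM of the 10 genes on a log axis, 1 point per library, with the minimum of 10 TPM for a contrast as a dashed line. Cdk4 and Ccnd1 lie at 508 TPM or more in all 4 libraries, Cdk6 lies below 2 TPM, and Cdk2 spreads from 16.1 TPM (double KO) to 56.5 TPM (Trp53 KO).

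Ranked by level, Cdk4 (606 to 720 TPM) and Ccnd1 (508 to 632 TPM) overlapped at the top. Ccnd2 and then Ccnd3 followed without overlap with any neighbour. Cdk2, Ccne1, Ccne2, E2f1 and Rb1 all lay between 13.5 and 56.5 TPM, and their ranges overlapped, except that the lowest Ccne1 value (24.1 TPM) was above the highest values of E2f1 and Rb1.

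**Figure D2:**
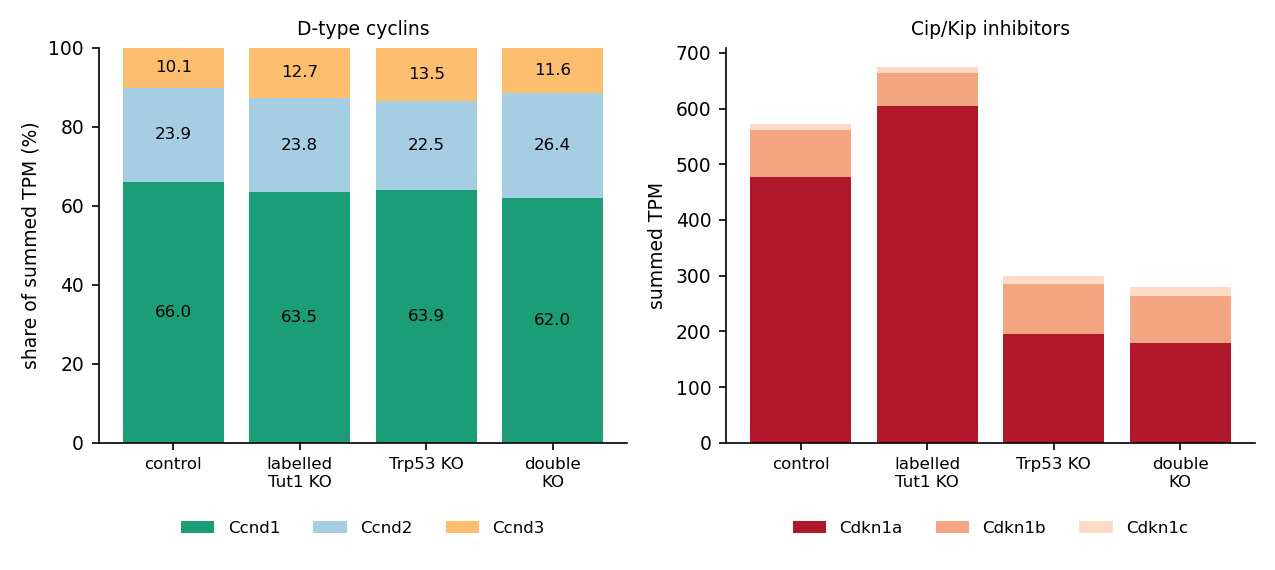
Left, share of the summed D-type cyclin TPM taken by each gene in each library, in percent. Right, summed TPM of the Cip/Kip inhibitors. Ccnd1 takes 62.0% to 66.0% of the D-type sum, and the Cip/Kip sum is 571 and 675 TPM in the control and the library labelled Tut1 KO against 299 and 280 TPM in the Trp53 KO and double KO libraries.

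Differences between libraries were taken on the log2(TPM + 1) scale, on which the change of a low gene is understated. A gene entered a contrast with at least 10 TPM in at least 1 of the libraries compared, which 9 of the 10 genes met, and was called when it differed by 1 or more in either direction. In cells with intact Trp53, the Tut1 deletion was addressed by the library labelled Tut1 KO minus the control, which also differ in whether Cre mRNA was given. None of the 9 genes was called, against 4.1% of 9032 genes called in either direction. Past the weaker mark of 1.5-fold, taken on TPM + 1, lay 1 of the 9 (Ccne2), against 12.1% of all genes. Rb1, at 0.658 of the control TPM, fell just short of that mark. The median of the 9 genes was -0.28, against -0.09 over all genes tested, and 6 of the 9 were below 0, against 60.7% of all genes. Ccne2 differed most, by -0.90, followed by Rb1 at -0.57 and Ccne1 at -0.36. Cdk4 differed by 0.18, Ccnd3 by 0.11 and Cdk2 by 0.01.

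In this contrast the differences followed the GC content of the transcripts, with a Spearman rho of 0.40 across 9023 genes, which share the same libraries. Ccne2 had a GC content of 36.3%, with only 0.923% of expressed genes below it, and Rb1 had 41.2%, against a median of 49.7%. After a correction for GC content and length, Ccne2 differed by -0.43, Rb1 by -0.23, Ccnd2 by -0.004 and Ccnd1 by -0.21. Ccne1 then lay at -0.39 and E2f1 at -0.32, against -0.36 and -0.29 before, so that both were below Rb1. The summed neuronal markers were at 167 TPM in the library labelled Tut1 KO and 241 TPM in the control, and their part was not tested. The part of GC content in the lower values of Ccne2 and Rb1 was not tested beyond this correction. Ints8, which shares 609 exon bases with Ccne2 on the opposite strand, was at 35.9, 24.9, 29.7 and 32.4 TPM in the order used above, with the same order of libraries as Ccne2. Whether strand was used in quantification is not given in the sources used here, so reads in that stretch cannot be told apart. The same holds for Cdk4 and Tspan31 (641 shared bases, Tspan31 at 103 to 127 TPM), Rb1 and Rcbtb2 (488 bases, 25.2 to 29.9 TPM), Ccnd3 and Bysl (361 bases, 28.7 to 33.3 TPM) and Ccnd1 and LTO1 (1100 bases, 4.30 to 5.81 TPM). Rb1 also shares 408 exon bases with Lpar6 on the opposite strand, which was at 7.18 to 9.23 TPM.

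With Trp53 lost, the deletion was asked, as far as the labels hold, by comparing double KO with Trp53 KO, where Cre mRNA was given to both cultures and no library is shared with the first contrast. Cdk2 was called lower, at -1.75, the 72nd lowest of 8976 genes, of which 3.21% were called and 1.79% were called lower. It was 1 of 9 genes, and the other 8 lay between -0.30 (E2f1) and 0.25 (Ccne2). The median of the 9 was -0.12, against 0.05 over all genes, and 7 of the 9 were below 0, against 41.3% of all genes. Set side by side, Cdk2 differed by 0.01 in the first contrast and by -1.75 in the second, and Ccne2 by -0.90 and 0.25. The GC and length correction brought the Ccne2 values to -0.43 and 0.10, while Cdk2 was at 0.11 and -1.80. These differences between contrasts were not tested, and within each contrast a library with Xist was set against a library with Y-linked transcripts, in opposite order. Their part in these differences was not tested. Summed neuronal markers were at 219 TPM in double KO and 212 TPM in Trp53 KO, and summed neural stem cell markers at 12534 and 10814 TPM. Fabp7 made up most of the neural stem cell sums, at 9394 and 7902 TPM. Of the 10 neural stem cell markers, 8 were above 0 in this contrast and 2 were below.

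The loss of Trp53 was asked by Trp53 KO minus control, where Cre mRNA and the floxed gene differed too, and by double KO minus the library labelled Tut1 KO. Within each of these contrasts a library with Xist was set against a library with Y-linked transcripts, in opposite order, and that part was not tested. In the first, none of the 9 genes was called, against 3.83% of 9055 genes, and 6 of the 9 were below 0, against 59.9%, with a median of -0.15 against -0.05. Cdk2 was higher by 0.64, past the 1.5-fold mark that 8.42% of all genes passed, and Ccne2 was lower by 0.40, or by 0.20 after the GC and length correction. In the second, Cdk2 was called lower, at -1.12, against 3.9% of 8950 genes called and 1.77% called lower. Ccne2 was higher by 0.75 there, so that 2 of the 9 genes passed 1.5-fold, against 10.7% of all genes. It was higher by 0.33 after the GC and length correction, when Cdk2 lay at -1.23. Of the 9 genes, 4 were below 0 in this contrast, against 39.7% of all genes, with a median of 0.08 against 0.09. In double KO minus control, Cdk2 was again called lower, at -1.11, against 3.31% of 9022 genes called and 1.85% called lower, and the other 8 genes lay between -0.40 (Rb1) and -0.03 (Ccnd3). All 9 were thus below 0, against 50.2% of all genes, with a median of -0.15 against -0.001, and the GC and length correction left 8 of 9 below 0 and a median of -0.105. The 3 calls of Cdk2 share the double KO library and are not independent of each other. Of the contrasts here, only double KO minus control compared libraries that both held Y-linked transcripts. With a pseudocount of 5, Cdk2 lay at -0.97 against the library labelled Tut1 KO and at -0.96 against the control and was not called in either.

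**Figure D3:**
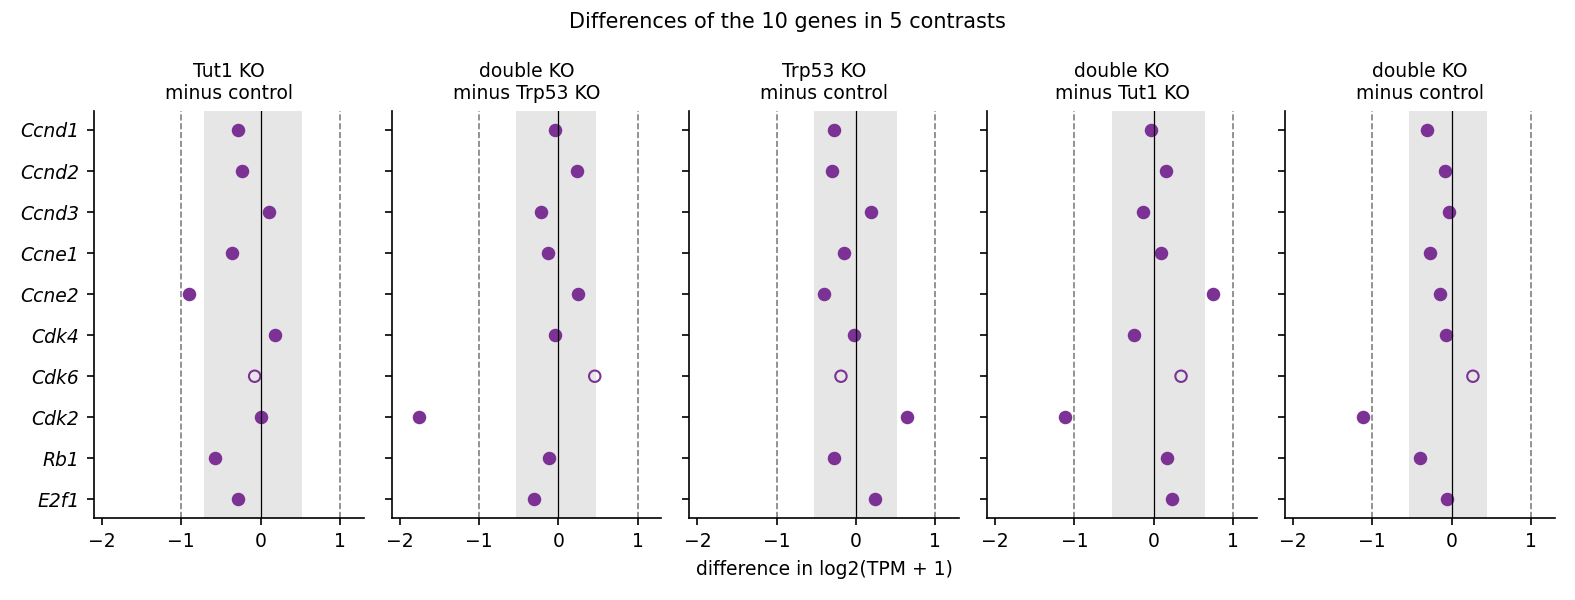
Difference in log2(TPM + 1) of each gene in 5 contrasts, where Tut1 KO means the library labelled so. Grey bands hold the 5th to 95th percentile of all genes tested, dashed lines mark the threshold of 1, and open circles mark Cdk6, which was below 10 TPM. Cdk2 alone passes the threshold, at -1.75, -1.12 and -1.11 in the contrasts that take another library from the double KO.

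Cdk2 in the double KO library was lower by at least 1 than in each of the other libraries. Of 9314 genes with at least 10 TPM in at least 1 library, 26 had this pattern, against 43 genes for the control, 66 for the library labelled Tut1 KO and 44 for the Trp53 KO library. Among the 135 genes of all lists examined, only Cdk2 and Cdkn2d had it. Cdkn2d, an Ink4 inhibitor of Cdk4 and Cdk6, was at 60.2 TPM in the control, 70.2 in the library labelled Tut1 KO, 86.4 in Trp53 KO and 20.7 in double KO. Like Cdk2, it was highest in Trp53 KO and lowest in double KO. It was called lower in the same contrasts as Cdk2, by -2.01 in double KO minus Trp53 KO, -1.71 against the library labelled Tut1 KO and -1.496 against the control.

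Cdkn2d was also the gene whose profile over the 4 libraries was nearest to that of Cdk2. Nearness was the Euclidean distance between log2(TPM + 1) values centred on the mean of each gene. It was taken over 7197 genes with at least 10 TPM in all 4 libraries, leaving out predicted genes, Riken clones and pseudogenes. The distance was 0.43 for Cdkn2d, 0.43 for Ramp2 and 0.48 for Laptm4b. Ramp2, a partner protein of calcitonin-family receptors, was at 21.98, 21.3, 30.05 and 12.9 TPM in the order used above. Laptm4b, a lysosomal membrane protein, was at 128, 126, 131 and 49.0 TPM, with its first 3 values nearly level. Around E2f1 the distances were 0.02 for Cinp, a protein that binds Cdk2, 0.03 for Gtdc1 and 0.05 for Lamc1, a laminin chain. Profiles were not scaled to their range, which was 0.53 for E2f1 and 1.75 for Cdk2. The distances around E2f1 and around Cdk2 can therefore not be compared. Cinp was at 75.0 TPM in the control, 62.0 in the library labelled Tut1 KO, 89.5 in Trp53 KO and 71.1 in double KO. Each profile has 4 points, and the likeness is given as a description.

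**Figure D4:**
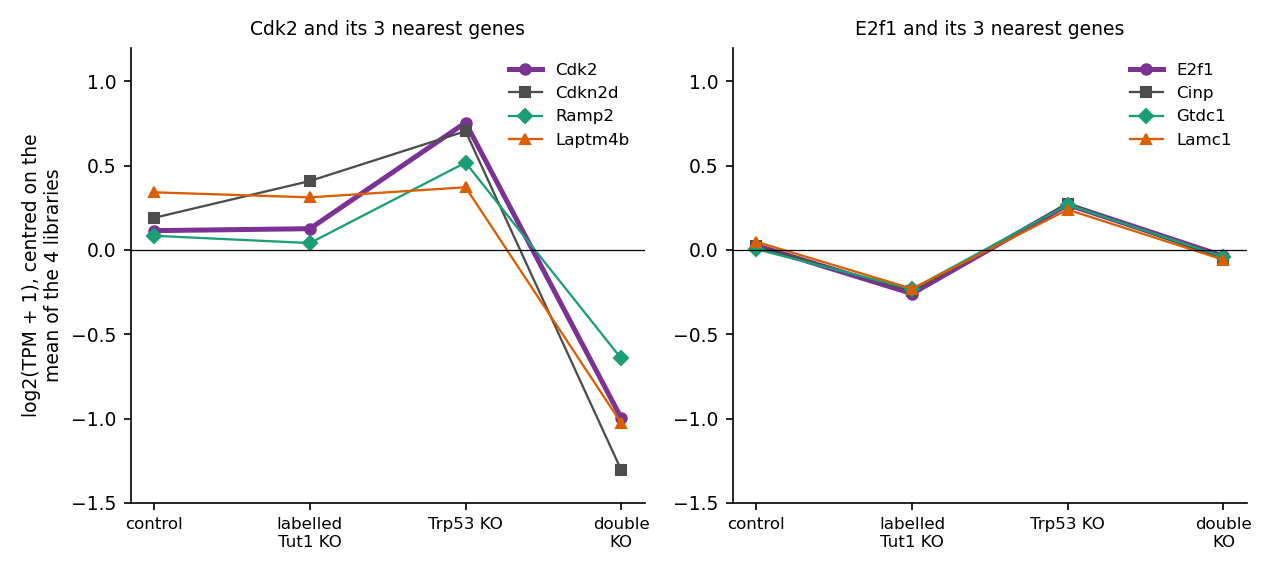
Centred log2(TPM + 1) of Cdk2 (left) and E2f1 (right) with their 3 nearest genes over the 4 libraries, joined by lines for reading only. Cdk2, Cdkn2d, Ramp2 and Laptm4b are all lowest in the double KO library, and E2f1, Cinp, Gtdc1 and Lamc1 are all highest in the Trp53 KO library and lowest in the library labelled Tut1 KO, with E2f1 spanning 0.53.

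The inhibitors that act on the G1 kinases were examined as a list of 7 genes. None was called in the library labelled Tut1 KO minus the control, against 4.1% of all genes, and 3 of the 7 were below 0, against 60.7% of all genes. In double KO minus Trp53 KO, 6 of the 7 were below 0 with a median of -0.13, against 41.3% and 0.05 over all genes. Only Cdkn2d was called there, against 3.21% of all genes called and 1.79% called lower. In Trp53 KO minus control, 6 of the 7 were above 0 with a median of 0.27, against 59.9% of all genes below 0 and a median of -0.05. Cdkn1a, a Cip/Kip inhibitor and a target of p53, was at 477 TPM in the control, 605 in the library labelled Tut1 KO, 196 in Trp53 KO and 179 in double KO. Cdkn1a was called lower by 1.28 in Trp53 KO minus control, by 1.75 in double KO minus the library labelled Tut1 KO and by 1.41 in double KO minus control, where 3.83%, 3.9% and 3.31% of all genes were called in either direction. The Cip/Kip sum of Cdkn1a, Cdkn1b and Cdkn1c was 0.60 of the D-type cyclin sum in the control and 0.82 in the library labelled Tut1 KO, against 0.37 in Trp53 KO and 0.34 in double KO. Cdkn1a made up 83.5%, 89.5%, 65.7% and 63.7% of that sum in the same order. The Ink4 genes Cdkn2a, Cdkn2b, Cdkn2c and Cdkn2d summed to 211, 199, 259 and 178 TPM, where Cdkn2a also encodes Arf, a regulator of p53.

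Downstream of the G1 kinases, 20 S phase genes that E2F factors are known to activate were taken as a list. None was called in any of the 5 contrasts, in which 3.21% to 4.1% of all genes were called, so that a count of 0 among 20 lies near the share of all genes. In the library labelled Tut1 KO minus the control, 18 of the 20 were below 0 with a median of -0.25, against 60.7% of all genes and a median of -0.09. With the median of all genes set to 0, 15 of the 20 were below 0 with a median of -0.16, and the GC and length correction gave 16 of 20 and -0.16. In double KO minus Trp53 KO, 14 of the 20 were above 0 with a median of 0.05. This was also the median of all genes, of which 41.3% were below 0. With the median of all genes set to 0, 10 of the 20 were above 0, and the GC and length correction also gave 10 of 20. Rrm2, the ribonucleotide reductase subunit of S phase and the most abundant of the list in the control, was at 297, 228, 264 and 276 TPM in the order used above.

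Of the other E2F and DP factors, none was called in any contrast, against the same 3.21% to 4.1% of all genes. Tfdp1, a DP protein with which E2f1 and other classical E2F proteins pair to bind DNA, was at 107 TPM in the control, 54.7 in the library labelled Tut1 KO, 84.4 in Trp53 KO and 86.9 in double KO. Its difference in the first contrast, -0.96, missed the threshold and was -0.84 after the GC and length correction. Of 9 factors, 6 were tested in that contrast and 5 were below 0, with a median of -0.45, against 60.7% of all genes and a median of -0.09. The GC and length correction gave 6 of 6 below 0 and a median of -0.37. In double KO minus Trp53 KO, 1 of 8 was below 0, against 41.3% of all genes, with a median of 0.17 against 0.05. The Rb1 relatives Rbl1 and Rbl2 were both below 0 in the library labelled Tut1 KO minus the control, with Rbl1 at 19.1, 13.7, 18.8 and 17.6 TPM. After the GC and length correction their median moved from -0.34 to -0.08.

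Among activators and turnover factors of the G1 kinases and cyclins, none of 5 activators and none of 10 turnover genes was called in any contrast, against 3.21% to 4.1% of all genes. In double KO minus the library labelled Tut1 KO, 9 of the 10 turnover genes were tested. Ccnh, the cyclin of the CDK-activating kinase, was at 61.2, 53.1, 61.9 and 63.2 TPM, and Skp1, a subunit of the ubiquitin ligases that degrade Ccne1 and Cdkn1b, was at 446, 456, 424 and 484 TPM. The activators had a median of -0.20 in the first contrast that turned to 0.13 with the GC and length correction, so no direction can be given for them.

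**Figure D5:**
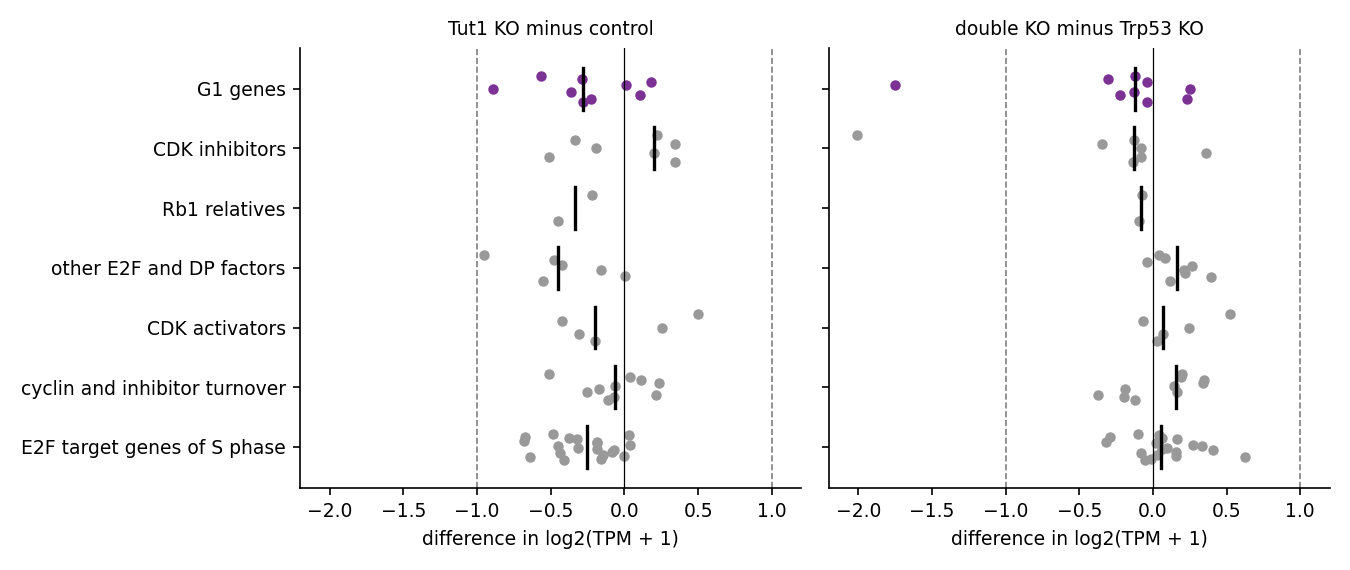
Difference in log2(TPM + 1) of the 9 tested G1 genes (purple) and of 6 lists of their regulators and targets (grey), with the median of each as a black bar, in the contrasts for the Tut1 deletion. Points past -1 (dashed) are Cdk2 and Cdkn2d, both in double KO minus Trp53 KO, while the S phase genes centre on -0.25 in the left panel and 0.05 in the right panel.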

How the data were processed

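Expression was measured in 4 libraries of cultured mouse neural stem cells, 1 per group as named in the labels. The deposited table gave TPM per gene as computed by the authors, with no counts. The submitters' processing notes name Trimmomatic, HISAT2, StringTie and mm10, without versions, and their order and the annotation are not given in the sources used here. The labels name a stranded short-read kit while the series text describes long reads, so the platform is unsettled. TPM keeps no depth, so no counting error could be given.

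Differences were taken on log2(TPM + 1) for genes with at least 10 TPM in at least 1 library compared and called at 1. No test was run, since each group had 1 library. Coordinates, GC content and lengths came from GENCODE M21 (GRCm38, the build mm10 is based on). The GC and length correction removed a quadratic fit on both from each library's departure from the mean over the libraries. GC content of a gene was that of its longest transcript, which for Cdk2 is a single-exon model. The code was tested on simulated data. The 10 genes, the lists and the thresholds were chosen with earlier results of these data known. Named genes were the 10 genes, any list gene called in a contrast, the gene with most TPM in the control of each pathway list, Tut1, Trp53 and the 3 nearest profiles. Xist, Ddx3y, Map2, Fabp7, Olig1, Olig2, Rbl2, other members of the inhibitor sums, genes that overlap the 10 genes and markers at 0 were named after their values were seen. The alternatives tried were a pseudocount of 0.1 or 5, a minimum of 1 TPM, no minimum, 10 TPM in all libraries compared, the median set to 0, quantile normalization, removal of 125 mitochondrial and ribosomal protein genes, the GC and length correction and a 1.5-fold threshold. For lists other than the 10 genes, scalings were added after the data were seen. Scripts ran under Python 3.11.15 with pandas 2.3.3, numpy 2.4.6, matplotlib 3.10.9 and scipy 1.17.1.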

Additional observations from a re-analysis of the deposited data

How the results depend on the processing

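No replicate could be left out. No paired analysis was possible because each group holds 1 library and no test was run. In place of a replicate spread, the difference of a single gene was taken as unmoved within the median absolute deviation over all genes of its contrast, by which 407 differences of the 10 genes were unmoved and 8 moved, and no called difference changed sign. The median of the 10 genes was counted as moved when its sign turned or it changed by over 1.5 times, which held for 6 of 45 values. In double KO minus the library labelled Tut1 KO it turned from 0.08 to -0.0015 with the median of all genes set to 0, -0.019 with quantile normalization and -0.11 with the GC and length correction, so no direction can be given there. It was -0.082 in double KO minus Trp53 KO with a minimum of 1 TPM or none, and -0.094 in Trp53 KO minus control with the median of all genes set to 0. Shares of the D-type cyclins shifted by at most 1.297 percentage points, and ratios of Cdk4 to Cdk6 by at most 1.33 times. The number of genes called changed in 5 cases and held in 45. A 1.5-fold threshold gave 1 in the library labelled Tut1 KO minus the control (Ccne2, lower), 1 in Trp53 KO minus control (Cdk2, higher) and 2 in double KO minus the library labelled Tut1 KO (Ccne2 higher, Cdk2 lower), while a pseudocount of 5 gave 0 in that contrast and 0 in double KO minus control. Of 160 medians of the other lists under 4 scalings, 17 turned sign, among them those of the turnover genes and the activators in both contrasts with the library labelled Tut1 KO. The depth behind each TPM value is unknown, and low genes such as Cdk6 are limited most.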

Other observations

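Mitogen signalling, which lies upstream of Ccnd1, held no call among 12 genes in any of the 5 contrasts, with 11 genes tested in each, against 3.21% to 4.1% of all genes called. Spry2, a feedback inhibitor of FGF signalling and the most abundant of that list in the control, was at 239 TPM in the control, 197 in the library labelled Tut1 KO, 218 in Trp53 KO and 237 in double KO. The median of the list was -0.11 in the library labelled Tut1 KO minus the control, against -0.09 over all genes. It was -0.06 between double KO and Trp53 KO, against 0.05 over all genes.

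Genes of G2 and mitosis, which act after the G1 genes, were all 10 below 0 in the library labelled Tut1 KO minus the control, with a median of -0.31, against 60.7% of all genes below 0 and a median of -0.09. With the median of all genes set to 0, 8 of 10 were below 0, and the GC and length correction left 9 of 10 below 0 with a median of -0.19. Ccnb1, the mitotic cyclin, was at 185 TPM in the control, 92.0 in the library labelled Tut1 KO, 114 in Trp53 KO and 145 in double KO, and was called lower at 0.497 of the control TPM, at the edge of the threshold, in a contrast where 4.1% of all genes were called. Ccnb1 was not called with a pseudocount of 5 or under any of the 4 scalings tried, which gave -0.91 with the median of all genes set to 0, -0.95 with quantile normalization, -0.98 without mitochondrial and ribosomal protein genes and -0.83 with the GC and length correction. Top2a, a topoisomerase of dividing cells, was at 361, 272, 382 and 333 TPM in the same order. In double KO minus Trp53 KO, 8 of the 10 were below 0, against 41.3% of all genes, with a median of -0.06 against 0.05.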
